A study of Mus musculus with 2 samples.

Results

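S100 proteins, annexins and galectins were described in a library of mouse skin-derived precursors (SKPs) set against a library of dermal fibroblasts. The members were every gene with a read in either library whose symbol begins with S100a, Anxa or Lgals and a digit, S100a4 not included. The rule gave 31 of 17431 genes with a read: 12 S100 genes, 10 annexins and 9 galectin-named genes. Lgals3bp came in by its name, although its product is a glycoprotein that galectin-3 binds and not a galectin. SKPs are multipotent dermal cells that grow as suspended spheres. The SKP culture came from BALB/c dermis at postnatal day 4 and was kept in DMEM/F12 (3:1) with 40 ng/ml FGF2, 20 ng/ml EGF, 2% B27 and 0.1% penicillin/streptomycin. The fibroblast culture came from BALB/c dermis at postnatal day 3 and was kept in DMEM with 10% fetal bovine serum. Each group was 1 library of poly(A) RNA, so medium, growth factors, age and cell type cannot be told apart, and no difference has a replicate check. How many animals each culture came from is not stated.

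S100 proteins are small calcium sensors that mostly work as dimers: calcium opens a surface that binds a target protein. Annexins bind acidic membrane lipids when calcium is present and link membranes to the cytoskeleton, and several of them are clamped by an S100 dimer. Galectins bind galactose-containing sugars on glycoproteins and, once secreted, crosslink receptors and matrix at the cell surface. In skin the families are known from several compartments, with S100a8, S100a9 and Lgals7 in keratinocytes or inflamed epidermis, Lgals12 in fat cells, and Lgals1, Anxa2 and S100a6 in mesenchymal cells.

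Mapped reads numbered 19563021 in the SKP library and 19084469 in the fibroblast library. The totals counted in genes came to 96.9% and 96.4% of these numbers. How reads that matched several places were counted is not stated, so these are not shares of reads that fell in genes. Levels are in RPKM, reads scaled by gene length and by the library's counted total, and 1 read in a gene of 1 kb was worth 0.0528 RPKM in SKPs and 0.0543 RPKM in fibroblasts. The labels were checked against marker lists. The SKP markers Nes and Sox2 were 4.48-fold and 2.23-fold higher in the SKP library (Sox2 was under 1 RPKM in fibroblasts). The other 6 of 8 SKP markers were under 2-fold apart. Of these, Snai2 (ratio 0.538), Ngfr (0.631), Fn1 (0.864) and Twist1 (0.908) were lower in SKPs, and Vcan (1.49) and Wnt5a (1.80) higher. The dermal fibroblast markers summed to 10619 RPKM in SKPs and 10714 RPKM in fibroblasts, but of its 9 genes 4 were higher in SKPs (Lum 52.4-fold, Dcn 6.89-fold, Col3a1 3.60-fold and Dpt 2.10-fold) and 2 lower (Thy1 3.17-fold and Col1a1 2.07-fold). Over all 12053 genes expressed by the filter given below, 12.1% were called higher in SKPs and 6.41% lower. The lists of other skin cells were not empty: summed levels in SKPs and fibroblasts were 49.0 and 4.00 RPKM for 14 keratinocyte genes, 36.4 and 8.31 RPKM for 17 myeloid and leukocyte genes, 151 and 0.834 RPKM for 8 mast cell genes, 386 and 38.2 RPKM for 8 adipocyte genes, 19.7 and 4.87 RPKM for 6 melanocyte genes, and 4.81 and 1.99 RPKM for 5 endothelial genes. By the filter given below, Mitf (17.0 RPKM in SKPs and 3.18 RPKM in fibroblasts) was the only expressed melanocyte gene. Cdh5 (3.57 RPKM in SKPs and 0.787 RPKM in fibroblasts) was the only expressed endothelial gene. Of the other melanocyte and endothelial genes, Tyr, Kdr and Vwf were lower in SKPs and the rest higher. The Schwann cell list of 7 genes went the other way, at 3.57 RPKM in SKPs and 9.38 RPKM in fibroblasts. S100b in it was nevertheless higher in SKPs. Gfap, with 4 reads in SKPs and 2 in fibroblasts, was below the filter given below. The counting interval of its ratio, 0.278 to 21.5, included equality. The Schwann cell marker Sox10 stood at 0.953 RPKM in SKPs and 4.05 RPKM in fibroblasts. In these bulk libraries, fewer cells of a type and less RNA per cell cannot be told apart.

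Expression was taken as 1 RPKM or more with 20 reads or more in either library, which 24 members reached. Of these, 4 were higher in SKPs by 2-fold or more with a counting interval that excluded equality, against a background of 12.1% of all 12053 expressed genes (4 of 24 is 16.7%). They were S100a16, S100a8, S100a1 and Lgals7. Another 3 members, Anxa3, Anxa8 and Lgals4, were lower in SKPs by 2-fold or more (12.5%, against a background of 6.41%). The other 17 lay under 2-fold, 13 of them under 1.5-fold. At 1.5-fold, 5 members were higher (background 18.7%) and 6 lower (background 14.2%), and at 4-fold, 4 were higher (background 5.85%) and 1 lower (background 2.00%). S100a8, Lgals7 and Lgals4 passed the filter through their higher library alone and so had to differ. Among the 21 members past the filter in both libraries, 2 were higher and 2 lower, where the backgrounds were 7.44% and 4.66%. The median log2 ratio of SKP over fibroblast was 0.10 over the 24 members and -0.01 over all expressed genes, and these shares and medians are a description with no test. Intervals in parentheses are 95% exact counting intervals of a ratio, which leave out any difference between cultures.

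**Figure D1:**
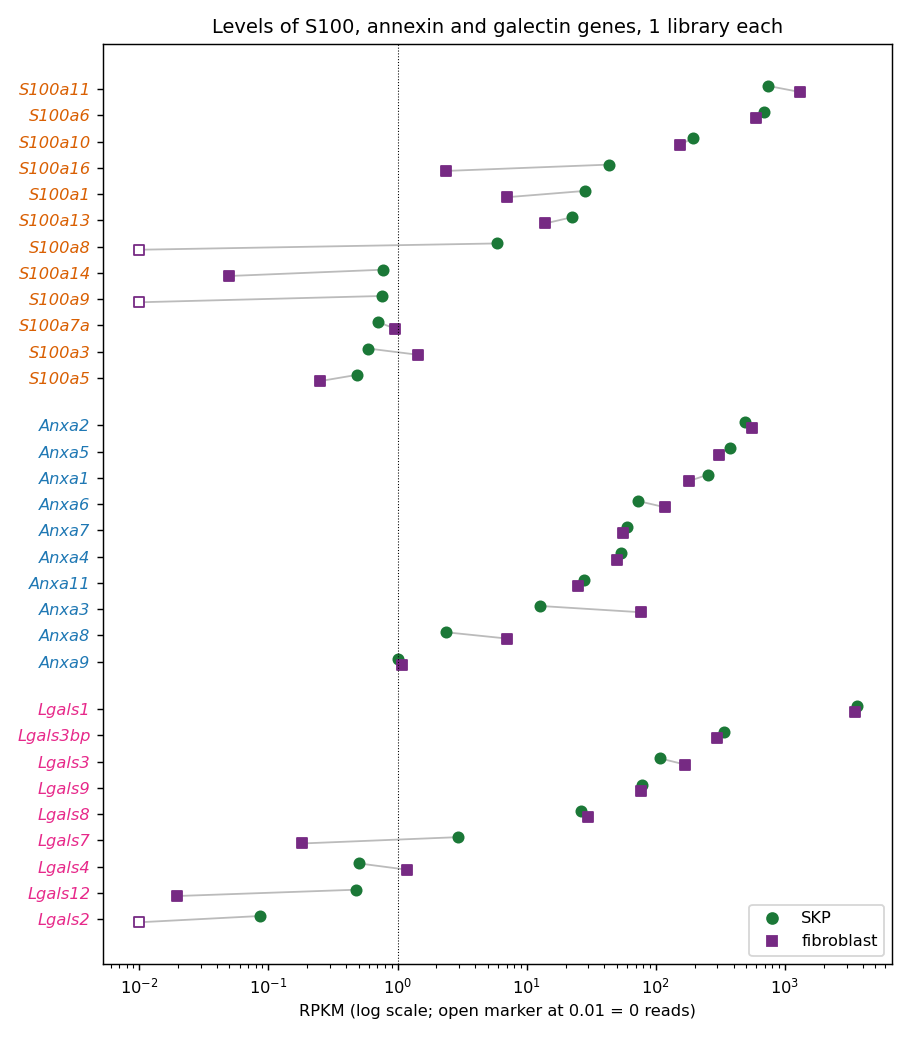
RPKM of all 31 members on a log axis, SKP as circles above and fibroblast as squares below on each row, ordered within S100, annexin and galectin genes by SKP level; open markers stand for 0 reads and the dotted line for RPKM 1. Most pairs lie close together. The long connectors belong to S100a16, S100a8, S100a14, S100a9, Lgals7, Lgals12 and Lgals2 toward SKPs and to Anxa3 toward fibroblasts. Those of S100a8, S100a9 and Lgals2 end at a fixed low value drawn for 0 reads, so their length is not a ratio.

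The start regions shown here are of S100a11, the most abundant S100 gene, and of S100a1, S100a13, S100a16 and S100a8, with ratios above 1. They are RefSeq windows of build GRCm38.p6 (the deposited counts used mm9), from 250 bases before to 50 bases after an annotated start, printed 5′ to 3′ on the gene's strand. S100a1 (chr3:90514281-90514580, minus strand) and S100a13 (chr3:90514185-90514484, plus strand) point away from each other, with starts 105 bases apart, and capitals mark the 204 bases that the windows share on opposite strands. S100a16 has windows at chr3:90537004-90537303 and chr3:90540896-90541195 (plus strand), S100a11 at chr3:93520246-93520545 (plus strand) and S100a8 at chr3:90668821-90669120 (plus strand), where capitals mark the motifs searched.
S100a1: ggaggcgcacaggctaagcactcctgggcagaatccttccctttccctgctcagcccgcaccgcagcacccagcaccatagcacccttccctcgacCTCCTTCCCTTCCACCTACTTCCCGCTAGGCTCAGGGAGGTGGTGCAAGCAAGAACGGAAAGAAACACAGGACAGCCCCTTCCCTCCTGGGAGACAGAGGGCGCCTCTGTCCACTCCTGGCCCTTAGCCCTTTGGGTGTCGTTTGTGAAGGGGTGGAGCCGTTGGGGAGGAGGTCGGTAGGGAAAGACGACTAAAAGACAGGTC
S100a13: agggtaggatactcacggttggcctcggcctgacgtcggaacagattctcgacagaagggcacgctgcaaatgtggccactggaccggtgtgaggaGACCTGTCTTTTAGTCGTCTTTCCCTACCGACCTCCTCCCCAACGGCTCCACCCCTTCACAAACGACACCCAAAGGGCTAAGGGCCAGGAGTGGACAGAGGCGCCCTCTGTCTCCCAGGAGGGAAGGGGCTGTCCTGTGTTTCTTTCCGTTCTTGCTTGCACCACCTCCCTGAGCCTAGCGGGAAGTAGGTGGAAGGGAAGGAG
S100a16, first window: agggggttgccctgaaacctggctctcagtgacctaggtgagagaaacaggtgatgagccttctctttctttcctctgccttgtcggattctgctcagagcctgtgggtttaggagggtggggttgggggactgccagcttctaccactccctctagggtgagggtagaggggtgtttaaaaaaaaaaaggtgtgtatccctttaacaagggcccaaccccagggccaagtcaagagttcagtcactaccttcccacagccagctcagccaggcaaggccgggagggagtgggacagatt
S100a16, second window: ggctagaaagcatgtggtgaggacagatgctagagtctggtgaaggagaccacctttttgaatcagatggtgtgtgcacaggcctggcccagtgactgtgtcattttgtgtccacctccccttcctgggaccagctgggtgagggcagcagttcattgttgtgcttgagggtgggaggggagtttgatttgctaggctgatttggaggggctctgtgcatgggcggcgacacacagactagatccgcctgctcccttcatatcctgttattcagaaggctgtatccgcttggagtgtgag
S100a11: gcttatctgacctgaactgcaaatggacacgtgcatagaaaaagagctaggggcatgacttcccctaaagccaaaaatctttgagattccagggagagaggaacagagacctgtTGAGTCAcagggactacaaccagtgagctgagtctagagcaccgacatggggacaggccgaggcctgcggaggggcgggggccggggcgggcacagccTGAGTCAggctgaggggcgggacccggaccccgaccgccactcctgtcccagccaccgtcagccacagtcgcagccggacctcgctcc
S100a8: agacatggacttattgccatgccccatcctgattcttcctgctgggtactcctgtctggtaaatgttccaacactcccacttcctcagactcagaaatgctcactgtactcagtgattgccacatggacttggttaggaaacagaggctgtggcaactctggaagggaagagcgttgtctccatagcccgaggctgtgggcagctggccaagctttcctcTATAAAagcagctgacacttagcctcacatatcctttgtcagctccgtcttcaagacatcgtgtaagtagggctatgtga

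Windows were found for 25 of the 31 members, 32 windows in all, and were searched on both strands for TGACTCA (the AP-1 site), the CArG box of serum response factor and TATAAA. The AP-1 letters, which 5.20% of all 32851 windows held, were found in S100a11 as 2 copies, starting 136 and 38 bases before the start, and in Anxa2 as 1 copy 95 bases before it. TATAAA, present in 13.6% of all windows, was found for 5 members, in 1 window of each (S100a3 had several windows). In Anxa1, Anxa2 and S100a8 it began 32, 17 and 30 bases before the start, and S100a3 and S100a9 held it as well. The percentages here are per window, while members are counted per gene. The CArG box, at 1.63% of all windows, was found in Anxa5. The S100a1, S100a13 and S100a16 windows held none of these letters. A match is a description of the sequence and not a binding site.

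S100a16, a broadly expressed S100 protein, had the largest measured ratio of the expressed members with reads in both libraries. It had 891 reads (43.1 RPKM) in SKPs and 48 reads (2.39 RPKM) in fibroblasts, 18.0-fold higher in SKPs (13.5 to 24.6). Its rank by RPKM was 1679 in the SKP library and 9876 in the fibroblast library. S100a1, best known as a regulator of calcium cycling in heart muscle, had 331 reads (28.4 RPKM) in SKPs and 80 reads (7.07 RPKM) in fibroblasts, 4.02-fold higher (3.14 to 5.20). S100a13, which takes part in the unconventional secretion of FGF1, stood at 22.6 RPKM in SKPs and 13.9 RPKM in fibroblasts, 1.63-fold apart (1.35 to 1.96) and therefore under the 2-fold line. The S100a1 and S100a13 starts face away from each other and are 105 bases apart, so transcripts from these starts do not overlap. Other starts were not examined. The strandedness of the counting is not given, so reads in any part shared by transcripts from other starts could not be assigned.

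S100a8 and S100a9 encode the subunits of calprotectin, the antimicrobial heterodimer of neutrophils and inflamed epidermis. S100a8 had 44 reads (5.92 RPKM) in SKPs and 0 in fibroblasts, which puts SKPs at least 14.2-fold higher when 3 reads are taken as the floor, and the exact lower limit was 11.1. S100a9 had 7 reads (0.757 RPKM) in SKPs and 0 in fibroblasts and stayed below the expression filter, at least 2.27-fold higher by that floor (exact lower limit 1.40). Per length, S100a8 was 7.83 times the level of S100a9 in SKPs (3.50 to 20.6). In the myeloid and leukocyte list, 6 of 8 expressed markers were higher in SKPs, beside backgrounds of 12.1% higher and 6.41% lower. Among the 6 were Lyz2 with 254 reads in SKPs and 38 in fibroblasts and Itgb2 with 178 in SKPs and 9 in fibroblasts. Cxcr2 was lower, at 44 reads in SKPs and 142 in fibroblasts, and the neutrophil genes Ly6g and Mpo had 0 reads in both libraries. Of the 6 higher markers 4 reached the filter in SKPs alone, and Cxcr2 in fibroblasts alone, so these had to differ. The keratinocyte genes Krt14 (13.4 RPKM in SKPs and 0.970 RPKM in fibroblasts) and Krt6a (5.81 RPKM in SKPs and 0.214 RPKM in fibroblasts) were higher in the library that held the S100a8 reads, and Krt1 and Ivl were at 0 in the other. Krt14, Krt6a and Ivl passed the filter through SKPs alone and so had to differ, and Krt1 was below it. The part of myeloid cells or keratinocytes in the S100a8 level was not tested.

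The 3 abundant S100 genes differed little or went the other way. S100a11, a partner of annexin A1 found in many dividing cells, had the highest level of the family in both libraries, with 732 RPKM in SKPs and 1318 RPKM in fibroblasts, 1.80-fold lower in SKPs (1.75 to 1.85). S100a6, called calcyclin for its link to the cell cycle, stood at 686 RPKM in SKPs and 599 RPKM in fibroblasts, 1.15-fold apart (1.11 to 1.18). S100a10, the S100 protein that holds annexin A2 in a heterotetramer and does not need calcium to do so, stood at 193 RPKM in SKPs and 153 RPKM in fibroblasts, 1.26-fold apart (1.19 to 1.34). The counting intervals of these ratios exclude equality, given the large read numbers, but they carry no information on how far cultures vary.

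The summed level of the 12 S100 genes was 1715 RPKM in SKPs and 2096 RPKM in fibroblasts, and without S100a11 it was 982 RPKM in SKPs and 778 RPKM in fibroblasts, so the direction of the sum rested on that gene. S100a11 made up 42.7% of the S100 sum in SKPs and 62.9% in fibroblasts. Of the 7 expressed S100 genes, 6 had a ratio above 1. The median log2 ratio of the 7 was 0.70, where that of all expressed genes was -0.01. S100a8, among the 6, passed the filter through SKPs alone and so had to be above 1, and its ratio in this median is a bound. The remaining 4 S100 genes were at the edge of detection. S100a14, an epithelial S100 gene, had 16 reads in SKPs and 1 in fibroblasts (15.5-fold, 2.41 to 652). S100a3, a gene of the hair cuticle, had 8 reads in SKPs and 19 in fibroblasts, just short of the read minimum, 2.45-fold lower (1.02 to 6.46). S100a7a, the mouse relative of psoriasin, had 10 reads in SKPs and 13 in fibroblasts, and S100a5 had 4 in SKPs and 2 in fibroblasts, and the intervals of both ratios included 1.

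**Figure D2:**
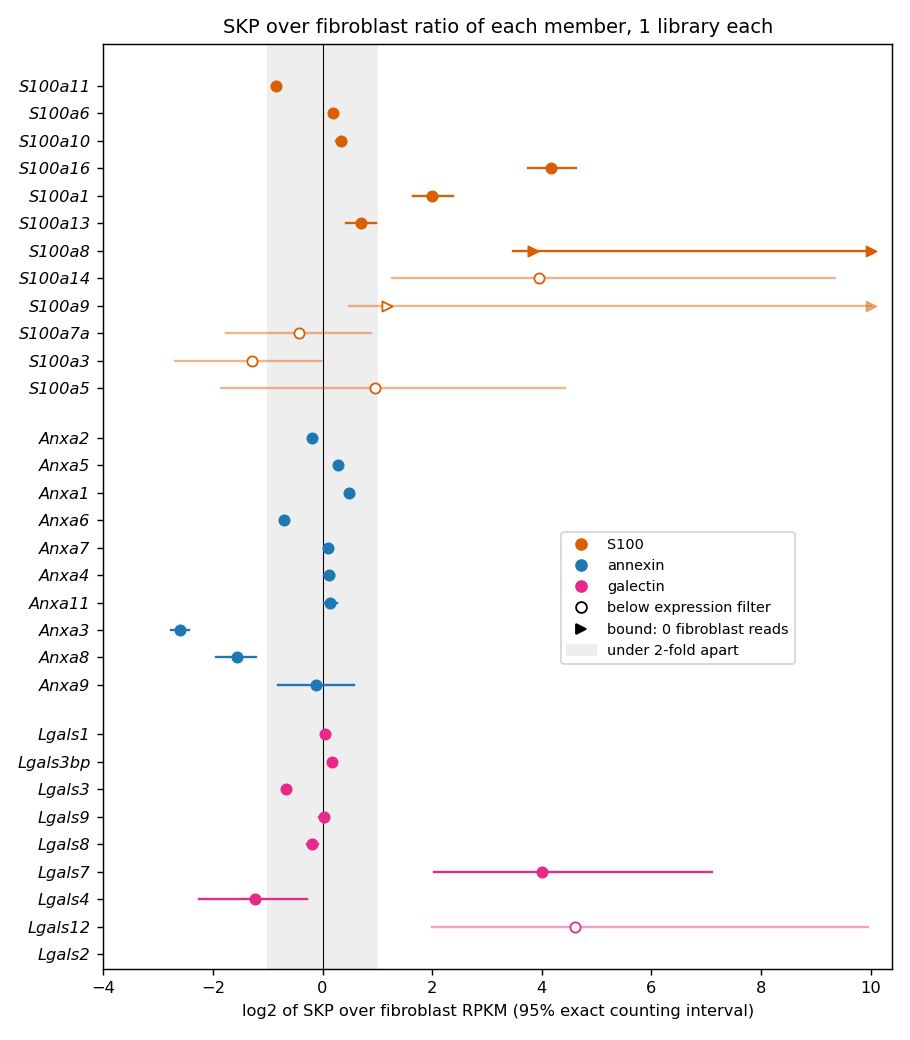
Log2 of SKP over fibroblast RPKM for each member with its 95% exact counting interval, coloured by family; open symbols lie below the expression filter, triangles are bounds against 0 fibroblast reads, and the grey band is under 2-fold. S100a16, S100a8, S100a1 and Lgals7 lie right of the band and Anxa3, Anxa8 and Lgals4 left of it among the filled symbols, and Lgals2 has no ratio.

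The S100 genes sit in a cluster on mouse chromosome 3, in the RefSeq order S100a1, S100a13, S100a14, S100a16, S100a3, S100a2, S100a5, S100a6, S100a7a, S100a8 and S100a9, with S100a4 between S100a2 and S100a5. The 4 genes at the S100a1 end, S100a1, S100a13, S100a14 and S100a16, all had ratios above 1, between 1.63-fold and 18.0-fold. Of these, S100a14 was below the expression filter and S100a13 was under 2-fold apart. The median log2 ratio of all expressed genes was -0.01. The next gene with reads, S100a3, was below the filter and on the other side, and S100a6 was close to equality. Farther along, S100a5 (1.94-fold, with an interval that included 1), S100a8 and S100a9 were above 1 as well. Ratios above 1 were therefore not particular to the S100a1 end. S100a5 and S100a9 were below the filter, and the ratios of S100a8 and S100a9 are bounds. Outside the cluster at the same end, the neighbours Chtop (1.35-fold), Snapin (0.804), Ilf2 (1.17-fold) and Ints3 (1.24-fold) were under 2-fold apart, while the natriuretic peptide receptor gene Npr1, which lies among them, stood at 1.32 RPKM in SKPs and 0.214 RPKM in fibroblasts, 6.19-fold higher (3.64 to 11.2), and passed the filter through SKPs alone. S100a11 and S100a10 lie apart from this group and next to each other, and their ratios pointed in opposite directions. The neighbours were chosen by position after the member values had been seen.

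**Figure D3:**
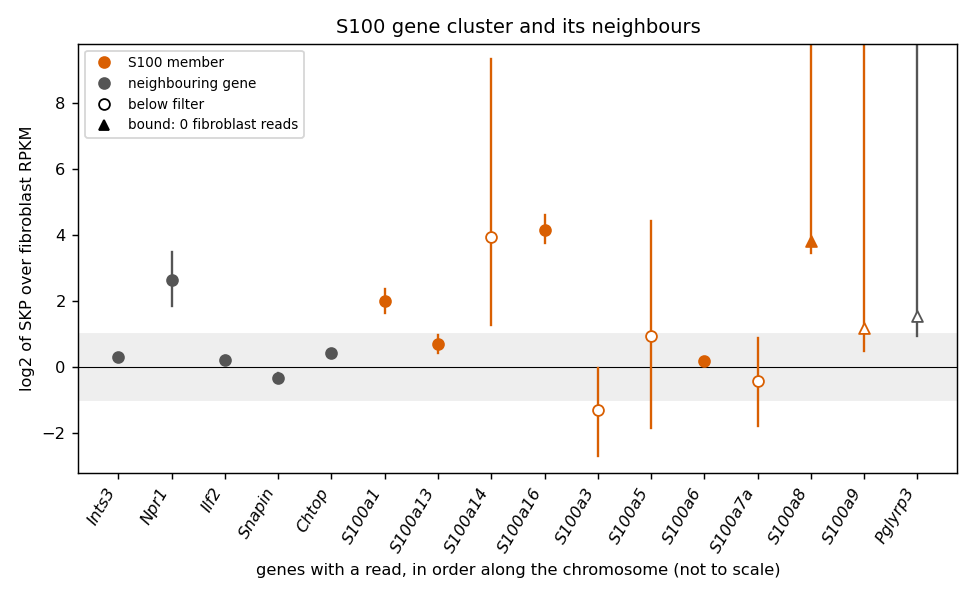
Log2 of SKP over fibroblast RPKM (with 95% exact counting intervals) for genes with a read, in chromosome order and not to scale, S100 members in orange and neighbours in grey; open symbols lie below the filter and triangles are bounds against 0 fibroblast reads, whose lines have no upper end, and the grey band is under 2-fold. The 4 genes S100a1, S100a13, S100a14 and S100a16 stand above equality, with S100a16 at 4.17 and S100a3 beside it at -1.29.

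All 10 annexins with a read were expressed, and 8 of them were under 2-fold apart. Anxa3, an annexin known from myeloid cells and from endothelial migration, differed most. It had 391 reads (12.7 RPKM) in SKPs and 2300 reads (77.2 RPKM) in fibroblasts, 6.06-fold lower in SKPs (5.44 to 6.76). It was thereby the fifth annexin by level in fibroblasts and among the last 3 in SKPs. Anxa8, an annexin of stratified epithelia and vessels, had 85 reads (2.37 RPKM) in SKPs and 245 reads (7.04 RPKM) in fibroblasts, 2.97-fold lower (2.31 to 3.84). Both were lower in the library with the higher keratinocyte and myeloid marker sums given above, and the part of such cells in the annexin levels was not tested.

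Of the common annexins, Anxa2, a membrane and plasminogen-binding annexin, was the most abundant at 488 RPKM in SKPs and 559 RPKM in fibroblasts (ratio 0.873, 0.852 to 0.894). Anxa5, the phosphatidylserine binder used as a probe of dying cells, stood at 372 RPKM in SKPs and 307 RPKM in fibroblasts (1.21-fold, 1.18 to 1.25). Anxa1, the annexin that restrains inflammation through formyl peptide receptors, stood at 254 RPKM in SKPs and 182 RPKM in fibroblasts (1.40-fold, 1.35 to 1.45). These 3 genes held the top places in both libraries in the same order. Anxa6, whose protein carries a doubled annexin core, stood at 72.1 RPKM in SKPs and 117 RPKM in fibroblasts, 1.62-fold lower (1.56 to 1.69), the next annexin below the 2-fold line after Anxa3 and Anxa8.

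The widely expressed Anxa7, Anxa4 and Anxa11 were near equality. Anxa7 stood at 59.5 RPKM in SKPs and 55.7 RPKM in fibroblasts, Anxa4 at 54.1 RPKM in SKPs and 50.02 RPKM in fibroblasts, and Anxa11 at 27.8 RPKM in SKPs and 25.1 RPKM in fibroblasts, with ratios of 1.07 to 1.10. Anxa9, an annexin with reduced calcium binding, was near the filter with 36 reads in SKPs and 38 in fibroblasts, under reads that covered 48.1% and 55.3% of its length in SKPs and fibroblasts. The summed annexin level was 1343 RPKM in SKPs and 1380.4 RPKM in fibroblasts, and the median log2 ratio was -0.01.

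Known S100 and annexin partners were set side by side per length. S100a10 was 0.396 times the level of Anxa2 in SKPs (0.379 to 0.414) and 0.274 times in fibroblasts (0.261 to 0.288). S100a11 was 2.89 times the level of Anxa1 in SKPs (2.79 to 2.99) and 7.26 times in fibroblasts (7.02 to 7.51), the widest gap of the pairs, since the S100 gene was lower and the annexin higher in SKPs. S100a6 was 24.7 times the level of Anxa11 in SKPs (23.3 to 26.2) and 23.8 times in fibroblasts (22.4 to 25.4), and these intervals overlap. These are RNA levels and say nothing of the proteins.

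Lgals1 dominated the galectins. Galectin-1, a secreted dimer that crosslinks laminin, fibronectin and integrins, had 55484 reads (3584 RPKM) in SKPs and 51988 reads (3457 RPKM) in fibroblasts, 1.04-fold apart (1.02 to 1.05). It ranked 4 among all genes in SKPs and 3 in fibroblasts, and held 86.6% of the galectin sum in SKPs and 85.7% in fibroblasts. How reads that matched several places were counted is not stated, which leaves the split between Lgals1 and any near-identical copy uncertain. The sum over the 9 galectin-named genes was 4138 RPKM in SKPs and 4033 RPKM in fibroblasts.

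Lgals3, the chimeric galectin of macrophages and many mesenchymal cells, stood at 107 RPKM in SKPs and 170 RPKM in fibroblasts, 1.58-fold lower (1.51 to 1.65). Its glycoprotein ligand Lgals3bp stood at 338 RPKM in SKPs and 298 RPKM in fibroblasts (1.13-fold, 1.11 to 1.16). Lgals3 was thus 0.318 times the level of Lgals3bp in SKPs (0.306 to 0.331) and 0.569 times in fibroblasts (0.550 to 0.589). The tandem-repeat galectin genes Lgals9, at 78.3 RPKM in SKPs and 77.1 RPKM in fibroblasts, and Lgals8, at 26.2 RPKM in SKPs and 29.9 RPKM in fibroblasts, were near equality, and the interval of Lgals9 included 1 (0.958 to 1.08).

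The galectin genes more than 2-fold apart were all under 3 RPKM in both libraries. Lgals7, the keratinocyte galectin, had 33 reads (2.92 RPKM) in SKPs and 2 reads (0.182 RPKM) in fibroblasts, 16.0-fold higher (4.10 to 138). Lgals12, the galectin of fat cells, had 25 reads (0.479 RPKM) in SKPs and 1 read (0.0197 RPKM) in fibroblasts, 24.3-fold higher (3.98 to 997), and did not reach the level filter. Lgals4, an intestinal galectin, had 14 reads in SKPs and 32 in fibroblasts, 2.35-fold lower (1.22 to 4.77), and Lgals2 had 1 read in SKPs and 0 in fibroblasts. Lgals7 had the same direction as the keratinocyte markers, of which all 9 expressed ones were higher in SKPs (background 12.1%). These 9 passed the filter through that library alone and so had to differ, and Krt15 was at 0 in both libraries. Lgals12 had the same direction as the adipocyte markers, of which 7 of 8 were higher in SKPs (background 12.1%). Of the 7, 5 passed the filter through that library alone and so had to differ. Pparg was under 2-fold apart, and Lep and Retn were at 0 in fibroblasts. All 7 expressed mast cell genes were higher in SKPs too, each past the filter in that library alone. With 1 library per group, a shared direction cannot link a gene to a cell type. The part of keratinocytes or fat cells in these levels was not tested.

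**Figure D4:**
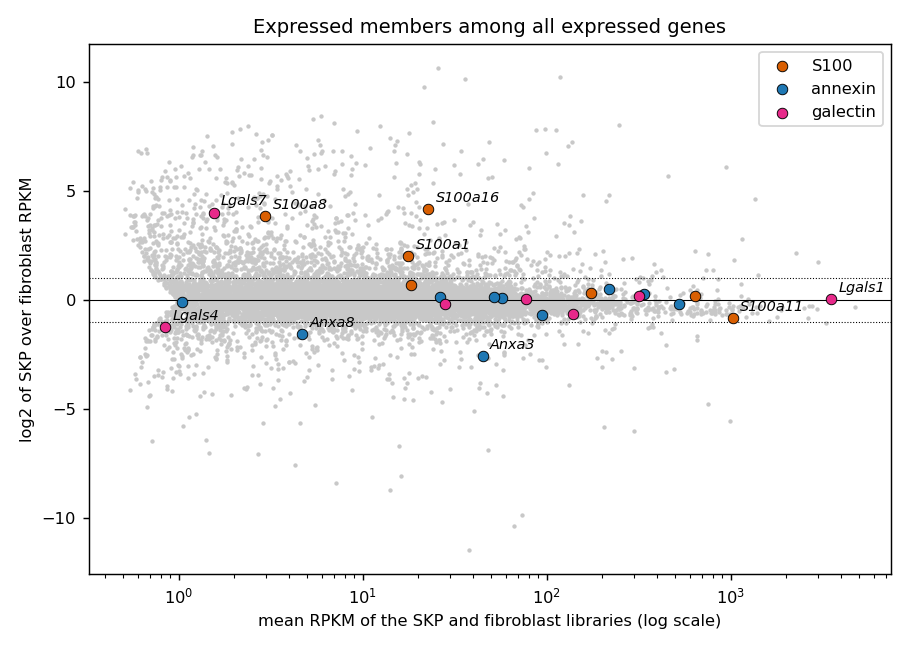
Mean RPKM of the libraries (log axis) against log2 of SKP over fibroblast RPKM for all 12053 expressed genes in grey and the 24 expressed members in colour, with dotted lines at 2-fold. Members above 100 RPKM lie between the lines, and those beyond them are at lower levels.

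The authors' deposited table of genes that passed their own filter held 2659 genes, where 17431 genes had a read in either library. The smallest absolute log2 ratio in it was 1.00 and the largest FDR 0.001. Of the 31 members, 8 were present: S100a16, S100a1, S100a8, S100a14, Anxa3, Anxa8, Lgals7 and Lgals12. The list differs from the calls above by S100a14 and Lgals12, which lie below the expression filter used here, and by Lgals4, which the authors' deposited table gives an FDR of 0.0122. The authors' deposited table gives S100a8 a log2 ratio of fibroblast over SKP of -9.21, a value that 0.01 in place of 0 RPKM sets.

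Genes that work with these families were read from 5 lists. Of 15 expressed receptors and binding partners of S100 proteins and annexins, 1 was higher in SKPs and 0 were lower, beside the backgrounds of 12.1% and 6.41%. The higher one was Tlr4, the receptor through which calprotectin signals, at 4.32 RPKM in SKPs and 1.88 RPKM in fibroblasts (2.30-fold, 1.87 to 2.84). Ager, which encodes the S100 receptor RAGE, had 24 reads in SKPs and 35 in fibroblasts, and the formyl peptide receptor genes Fpr1 and Fpr2 had 2 and 3 reads in SKPs and 2 and 1 in fibroblasts, while Fpr3 had 0 in both. The surface glycoprotein gene Bsg (273 RPKM in SKPs and 302 RPKM in fibroblasts) and the S100a10-Anxa2 partner gene Ahnak (82.3 RPKM in SKPs and 88.8 RPKM in fibroblasts) were near equality. The repair gene Trim72 (1.90-fold, 1.43 to 2.55) and the calcyclin-binding gene Cacybp (ratio 0.660, 0.603 to 0.722) were under 2-fold apart.

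Of 15 expressed genes for other calcium sensors, copines, calpains and reticulocalbins, 0 were called in either direction, beside the backgrounds of 12.1% higher and 6.41% lower. The copine gene Cpne8 (1.99-fold, 1.82 to 2.17) and the calpain gene Capn1 (1.81-fold, 1.71 to 1.91) came nearest on the higher side, and Capn2 (ratio 0.662, 0.639 to 0.685) on the lower side. The calmodulin gene Calm3 was 1.40-fold apart, and the abundant lumenal calcium binders Calu (400.2 RPKM in SKPs and 421 RPKM in fibroblasts) and Rcn3 (300.3 RPKM in SKPs and 234 RPKM in fibroblasts) also lay under 2-fold. Among S100 relatives outside the rule, S100b, the S100 gene of glia, had 32 reads in SKPs and 14 in fibroblasts (2.22-fold, 1.15 to 4.50), and S100pbp was 1.46-fold apart. The Schwann cell markers Sox10, Mbp and Foxd3 were lower in SKPs. S100b passed the filter through the SKP library alone and these markers through the fibroblast library alone, so they had to differ. The fused S100 genes Flg, Flg2 and Hrnr of cornified epidermis had 0 reads in both libraries. The galectin-related gene 1110067D22Rik (Lgalsl in RefSeq) had 415 reads (6.02 RPKM) in SKPs and 3126 reads (46.7 RPKM) in fibroblasts, 7.75-fold lower (6.998 to 8.61), and Grifin had 0 reads in both.

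The sugars that galectins bind are built by branching and capping enzymes. Of 21 expressed galectin ligands and glycan enzymes, 6 were higher in SKPs and 1 was lower, beside the backgrounds of 12.1% and 6.41%. Mgat4a, St6gal1 and Havcr2 passed the filter through the SKP library alone and so had to differ. Mgat5, the enzyme that adds the branch on which galectin-binding chains grow, had 1135 reads (19.3 RPKM) in SKPs and 73 reads (1.28 RPKM) in fibroblasts, 15.1-fold higher (11.9 to 19.4). The branching enzyme gene Mgat4a was 5.61-fold higher (4.39 to 7.26), at 3.28 RPKM in SKPs and 0.585 RPKM in fibroblasts. The more abundant Mgat4b on the same list stood at 23.8 RPKM in SKPs and 27.1 RPKM in fibroblasts (ratio 0.878, 0.809 to 0.954). The sialyltransferase gene St3gal1 was 3.88-fold higher (3.60 to 4.19). The sialyltransferase gene St6gal1, whose product caps galactose in a way that blocks galectins, was 3.78-fold higher (2.96 to 4.88). The other members higher in SKPs were Havcr2, a galectin-9 receptor of immune cells (6.31-fold, 3.92 to 10.7; the part of the myeloid cells whose markers are given above was not tested), and the galectin-1 binding receptor gene Nrp1 (2.71-fold), and the lower one was the adhesion gene Mcam (3.52-fold lower, 3.03 to 4.10). St6gal1, Nrp1, Mcam, Mgat1, Mgat2, Mgat4b, Itgb1 and Cd44, the formyl peptide receptor genes and the single marker genes were named after their values had been seen.

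The earlier enzymes of the same pathway, Mgat1 (1.12-fold) and Mgat2 (ratio 0.834), were close to equality. The ligand genes with the highest levels were Fn1, at 758 RPKM in SKPs and 877 RPKM in fibroblasts, and Lamp1, at 409 RPKM in SKPs and 539 RPKM in fibroblasts (1.32-fold lower). Itgb1 was 1.53-fold lower and Cd44 1.67-fold lower, all under the 2-fold line. The 6 genes higher in SKPs were 4 glycan enzymes and 2 receptors, and 3 of the 6 passed the filter in both libraries.

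**Figure D5:**
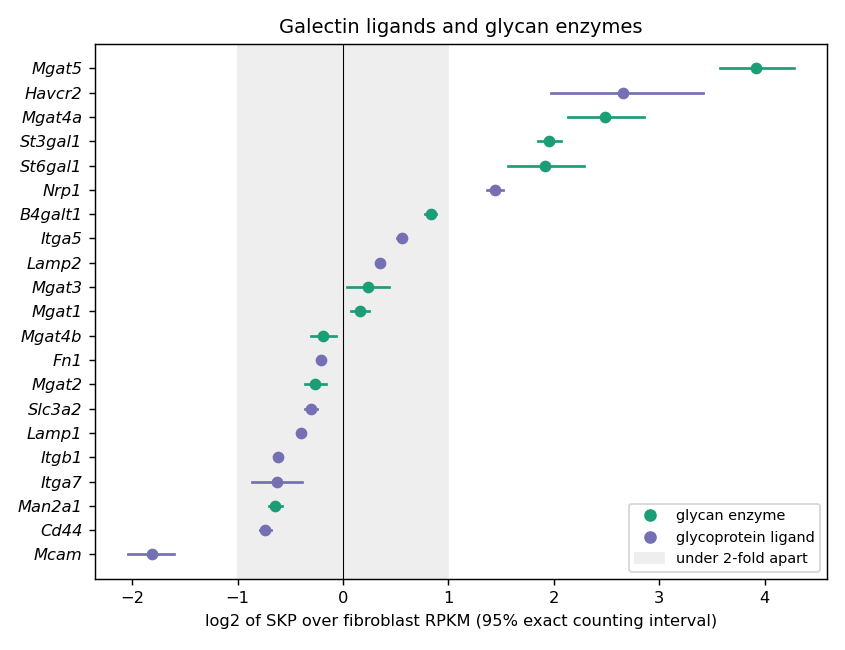
Log2 of SKP over fibroblast RPKM with 95% exact counting intervals for the 21 expressed galectin ligands and glycan enzymes, enzymes in green and glycoprotein ligands in violet, and the grey band under 2-fold. Mgat5 lies farthest right at 3.92, Mcam lies left of the band, and Mgat1, Mgat2, Fn1 and Lamp1 lie inside it.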

How the data were processed

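Poly(A) RNA of 1 SKP and 1 fibroblast culture was sequenced, and each library was grouped by its cell type label. Per the file headers, each deposited gene value is an unnormalized count of reads that the header calls unique, and the deposited RPKM equals reads scaled by gene length and by the library's total count. That word conflicts with the totals, which were larger than the single-match reads by 4370357 in SKPs and 3924587 in fibroblasts, so the split between paralogs and processed copies is uncertain. Deposited percent values give the reads per mapping class and how much of a gene reads cover. In the authors' table of the comparison, log2 is of fibroblast over SKP RPKM, beside a p-value and FDR whose test is not stated. The submitters' processing notes name mm9 as the build. No source used here gives the aligner, counting tool, annotation or strandedness.

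Ratios of SKP over fibroblast were computed with Python 3.11.15, pandas 2.3.3, numpy 2.4.6 and scipy 1.17.1, with 95% Clopper-Pearson intervals on the counts. The intervals and floors cover counting error only, because each group has 1 library. Reads without molecular identifiers are not independent molecules, so the intervals may be too narrow even for that error. Expressed meant RPKM 1 or more with 20 or more reads in either library. A call needed 2-fold and an interval without 1, and 0 reads were set to a floor of 3. With 1 library per group no p-value was computed. The script was tested on simulated data. Alternatives covered the filter, log2(RPKM + 1), scaling by the TMM method of edgeR 4.0.16 and by the median ratio, the fold threshold and leaving out Lgals3bp. Members and lists were chosen with earlier results of these data known. Every expressed member was named, and from each list up to 4 genes with the largest ratio and 2 with the highest RPKM, with further genes chosen after their values were seen. Start windows came from RefSeq, build GRCm38.p6.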

Additional observations from a re-analysis of the deposited data

How the results depend on the processing

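Without a filter on low values 7 members were higher in SKPs, with S100a14, S100a9 and Lgals12 added to the 4, and 4 were lower, with S100a3 added to the 3. At a threshold of 1.5-fold 6 members were lower (background 14.2%), with S100a11, Anxa6 and Lgals3 added, and 5 were higher (background 18.7%), with S100a13 added. At 4-fold 1 was lower, Anxa3 (background 2.00%), and 4 were higher (background 5.85%). At RPKM 5 or more 3 were higher and 2 lower. On the log2(RPKM + 1) scale 4 were higher and 2 lower, and the log2 ratios that moved were those of S100a16 (3.70), S100a8 (2.79), S100a14 (0.75), Lgals7 (1.73) and Lgals12 (0.54). Under TMM and median ratio scaling the counts were 4 and 3, all 30 members with a ratio kept their sign, and all genes shifted by 0.006 and 0.0095 on the log2 scale. Among these alternatives, shares over all genes were computed for the fold thresholds only, so the other counts have no background beside them. The median of all expressed members lay between 0.09 and 0.13 in each alternative tried. Without Lgals3bp the galectin median was -0.08, where it was 0.02 with it, and the annexin median was 0.09 at RPKM 5 or more and 0.02 on the log2(RPKM + 1) scale, where it was -0.01 as reported. No paired analysis was possible because each group has 1 library, and for the same reason no library could be left out. Depth limits the calls below about 20 reads, such as S100a9, S100a14, S100a5 and Lgals2.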
